A study of Mus musculus with 8 samples.

Results

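The triad genes of excitation-contraction coupling were followed in mice 3 months old, either SCA17 knock-in (KI) or wild type (WT). The 10 genes were taken by name, with earlier results of these data known. All 10 had a probe set with a single gene symbol, out of 19938 genes named on the array. They were Cacna1s, Cacnb1 and Cacng1 (subunits of the voltage sensor), Stac3 (its adaptor), Ryr1 (the calcium release channel), Trdn, Jsrp1 and Asph (proteins of the junctional sarcoplasmic reticulum), and Jph1 and Jph2 (the junctophilins). Each gene was read from the probe set with the highest mean over the 8 arrays, and the other probe sets of Jph1, Jph2 and Trdn were examined beside it. SCA17 is a dominant ataxia whose cause is an expanded glutamine repeat within TBP, a general transcription factor. RNA from TA muscle, named in the labels by that abbreviation, and from cerebellum was hybridised to Affymetrix Mouse Gene 1.0 ST arrays in 4 groups of 2: KI muscle (replicates 94 and 97), WT muscle (95 and 96), KI cerebellum (94 and 97) and WT cerebellum (95 and 96). The labels speak of 3 mice per genotype, while each group here holds 2 arrays. The labels name neither the strain nor the knock-in allele, and do not say whether an array held RNA of 1 animal or of a pool, so p-values measure only the spread between these arrays.

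A triad is the place where a transverse tubule, an inward fold of the muscle cell membrane, meets the terminal cisternae of the sarcoplasmic reticulum. The voltage sensor in the tubule is an L-type calcium channel that, in skeletal muscle, opens the release channel on the facing membrane by contact between the proteins. Junctophilins tie the membranes to each other, while triadin and junctin hold the release channel to calsequestrin, the calcium store of the reticulum. Neurons use related channels and junctophilins, mostly encoded by other members of the same families.

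Values are log2 RMA levels. The medians of the arrays ran from 5.40 to 5.51, and arrays of a group correlated with r from 0.977 to 0.989 over probe sets, which are not independent replicates. The tissue labels fitted their markers: of the markers that reached the filter level in both tissues, all 9 of skeletal fibres were higher in muscle and all 6 of the cerebellum were higher there, each past an adjusted p of 0.05 and a 2-fold change in limma. Tbp differed by 0.11 ± 0.12 (SE) between KI and WT muscle (adjusted p = 0.634), and its probe set does not separate the alleles. On each of the 8 arrays all 10 triad genes reached the 40th percentile of probe set values, so each was tested in both tissues.

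The first comparison was KI against WT muscle. Cacna1s, Jph1 and Jph2 fell, by 1.45-fold, 1.41-fold and 1.56-fold, and no triad gene rose. The other 7 did not pass: Ryr1, Cacnb1, Trdn, Stac3 and Jsrp1 had negative log2 differences of KI minus WT, and Cacng1 and Asph had positive ones. Calls required an adjusted p under 0.05 in limma (Benjamini-Hochberg, over the 13933 genes tested in muscle). Lower in KI were 3 of the 10 triad genes, against 0.89% of all genes; higher were 0 of 10, against 2.66%, and in either direction 3.55% of all genes were called. At an unadjusted p under 0.05 there were 4 of 10, against 20.3%. The 10 genes were chosen with earlier results of these data known, so these shares are not an independent test of the list. The median log2 difference was -0.22 over the 10 genes and 0.03 over all genes tested. Array by array, the mean of the 10 genes lay at -0.22 in KI replicate 94 and -0.24 in KI replicate 97, measured from the WT mean of each gene, while the WT replicates lay at -0.00488 and 0.00488.

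**Figure D1:**
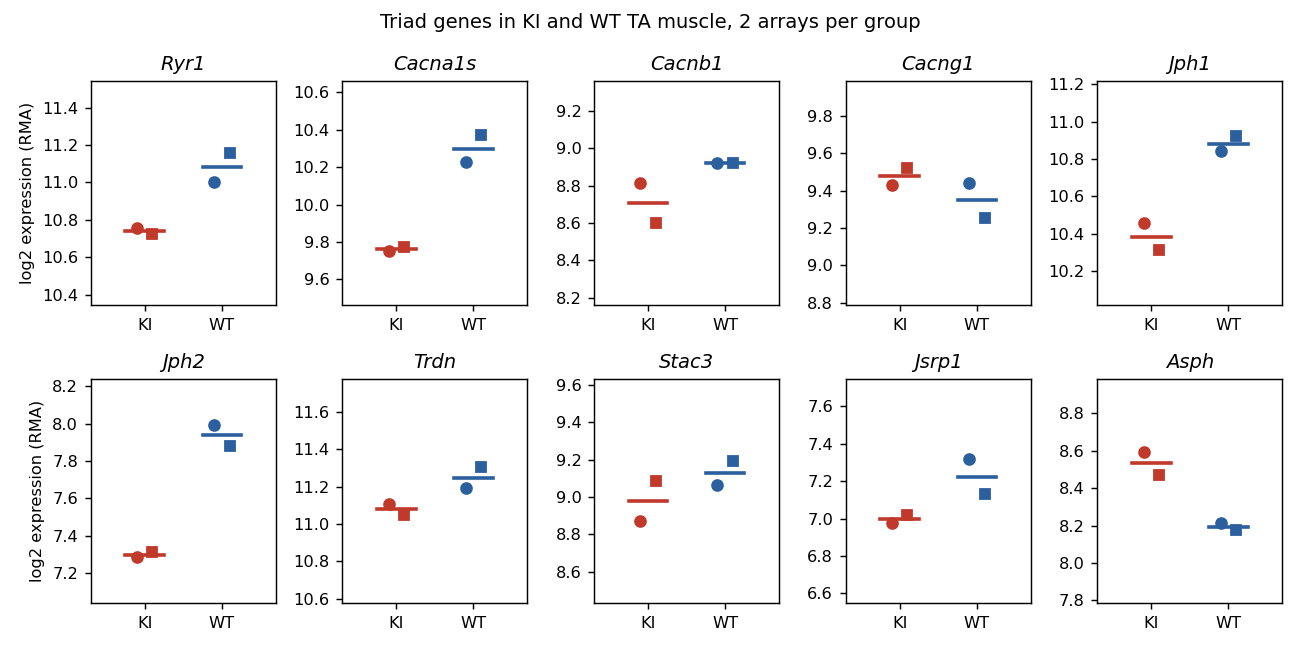
Log2 expression (RMA) of the 10 triad genes in KI (left, red) and WT (right, blue) TA muscle, with 1 point per array (circles for replicates 94 and 95, squares for 97 and 96) and a line at the mean of 2 arrays; every panel spans the same range of log2 units. The KI arrays lie below both WT arrays for 7 genes, above them for Asph, and overlap with them for Cacng1 and Stac3.

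Both KI arrays lay below both WT arrays in 7 triad genes and above them in 1, and the groups overlapped in 2. Over all genes tested in muscle, 50.2% had no overlap between the genotypes, 19.9% had KI below WT, and 30.3% had KI above WT. These are whole-tissue RNA levels, so fewer muscle fibres and less of an RNA per fibre cannot be told apart. The probe sets of different genes bind with different strength, so levels were compared between groups and not between genes.

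Cacna1s, the pore and voltage-sensing subunit of the channel (probe set 10350199, chromosome 1), was at log2 levels of 9.75 and 9.77 in KI muscle, against 10.23 and 10.37 in WT muscle. The groups did not overlap, and the gap between them was wider than the spread within either. The log2 difference was -0.54 ± 0.11 (SE; adjusted p = 0.0328). Cacnb1, the cytoplasmic beta subunit needed to bring the channel to the tubule (probe set 10390542, chromosome 11), was at 8.81 and 8.60 in KI muscle, against 8.92 in both WT arrays. One KI array lay close to WT, and the difference of -0.22 ± 0.11 did not pass (SE; adjusted p = 0.315). Cacng1, the gamma subunit, which dampens the calcium current (probe set 10392364, chromosome 11), was at 9.43 and 9.52 in KI muscle, against 9.44 and 9.25 in WT muscle. The groups overlapped, and the 95% interval of the difference ran from -0.14 to 0.39. Stac3, the adaptor that links the voltage sensor to release (probe set 10366938, chromosome 10), was at 8.87 and 9.09 in KI muscle, against 9.06 and 9.19 in WT muscle. These groups overlapped as well, with an interval from -0.47 to 0.17. Within the sensor complex, then, the pore subunit was called and its partners were not; no test of the difference between subunits was made.

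Ryr1, the ryanodine receptor through which calcium leaves the reticulum (probe set 10561561, chromosome 7), was at 10.76 and 10.73 in KI muscle, against 11.00 and 11.16 in WT muscle. The KI arrays lay close together and below both WT arrays. The difference of -0.34 ± 0.16 did not pass (SE; adjusted p = 0.276), and its 95% interval ran from -0.71 to 0.02, so a fall as large as that of Cacna1s lay within it.

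Jph2, the junctophilin shared by skeletal and cardiac muscle (chromosome 2), had the largest difference of the 10 genes. Probe set 10489355 was at 7.29 and 7.31 in KI muscle, against 8.00 and 7.88 in WT muscle, a log2 difference of -0.64 ± 0.11 (SE; adjusted p = 0.0202). Its other probe set, 10489357, was at 7.05 and 7.50 in KI muscle, against 7.95 and 8.06 in WT muscle. Both probe sets had KI below WT without overlap, and the KI arrays differed more from each other in the second. When every probe set with 1 gene symbol was tested as a row of its own, the second differed by -0.73 ± 0.16 (SE; adjusted p = 0.0402) and the first kept its call (adjusted p = 0.0232). Jph1, the junctophilin of skeletal muscle (chromosome 1), was at 10.46 and 10.31 in KI muscle, against 10.84 and 10.92 in WT muscle, in probe set 10353309. The difference was -0.50 ± 0.11 (SE; adjusted p = 0.0405), and the groups did not overlap. Its other probe set, 10353311, was at 9.71 and 9.44 in KI muscle, against 10.08 and 10.03 in WT muscle. It differed by nearly as much, -0.48 ± 0.14 (SE), but did not pass in the fit of all such probe sets (adjusted p = 0.106).

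Trdn, triadin, which anchors calsequestrin to the release channel (chromosome 10), was measured by 19 probe sets. Probe set 10362432, the brightest over both tissues together, was at 11.11 and 11.05 in KI muscle, against 11.19 and 11.30 in WT muscle. The groups were separate by a narrow margin and the difference of -0.17 ± 0.14 did not pass (SE; adjusted p = 0.539). Over the 19 probe sets the raw difference ran from -0.35 to 0.05 with a median of -0.14, 18 were negative, and 0 were called when tested one by one. In all 19, WT replicate 96 lay above both KI arrays and above WT replicate 95, and in only 3 did both WT arrays lie above both KI arrays. These probe sets measure the same RNA samples and are not replicates. The gap between the WT arrays was thus shared by all of them.

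**Figure D2:**
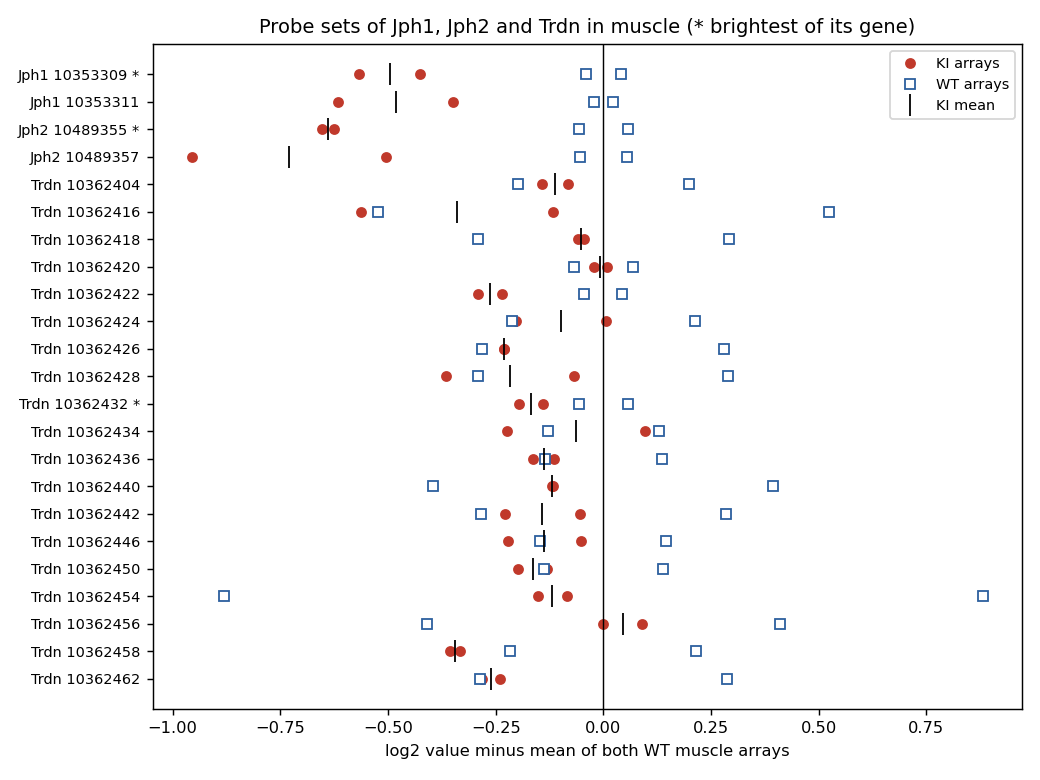
Values of each probe set of Jph1, Jph2 and Trdn in muscle, as log2 units from the mean of the 2 WT muscle arrays; red points are the KI arrays, open blue squares the WT arrays, black ticks the KI mean, and an asterisk the probe set used for the gene. The 4 junctophilin probe sets have both KI arrays left of both WT arrays, while only 3 of the 19 Trdn probe sets do.

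Jsrp1, which encodes JP-45, a junctional protein that binds the voltage sensor and calsequestrin (probe set 10370991, chromosome 10), was at 6.98 and 7.02 in KI muscle, against 7.32 and 7.13 in WT muscle. The groups were separate, but the WT arrays differed from each other by more than the nearer of them differed from KI, and the difference of -0.22 ± 0.14 did not pass (SE; adjusted p = 0.393). Asph gives rise to junctin, a partner of triadin, and also to the aspartyl beta-hydroxylase made in many tissues; its only probe set (10511446, chromosome 4) gives 1 value for all of these forms. It was at 8.59 and 8.47 in KI muscle, against 8.21 and 8.18 in WT muscle. This was the only triad gene with both KI arrays above both WT arrays. The difference was 0.34 ± 0.12 (SE; unadjusted p = 0.0189, adjusted p = 0.157) and was not called.

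All 3 calls were close to the threshold. Each was lost when any 1 muscle array was left out (adjusted p from 0.0570 to 0.117 for Jph2, 0.0926 to 0.130 for Cacna1s and 0.0945 to 0.172 for Jph1) and when the muscle arrays were fitted alone (0.0593, 0.0914 and 0.111). Of the 3, Jph1 kept its call least often: it was also lost with no filter (0.0796), with the mean over its probe sets (0.0576), with array weights (0.0543) and without any 1 cerebellum array (0.0616 to 0.0778), and it was called in 6 of 18 alternatives. Cacna1s was called in 10 and also lost its call with no filter (0.0656) and without either WT cerebellum array (0.0659 and 0.0663). Jph2 was called in 13. All 10 genes kept the sign of their muscle difference in each of 18 alternatives. Many of these, such as those of the filter, the variances or a cerebellum array left out, cannot change that difference. For genes without overlap, leaving out 1 muscle array could not turn the sign either.

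Promoter sequences from RefSeq (GRCm38.p6), running from 250 bases before to 50 bases after a gene's start, were found for 4 of the 10 genes, in 6 windows. These genes were Cacna1s, Cacnb1, Jph2 and Ryr1, and no window was found for Jph1, the remaining called gene. The windows of Cacna1s and Jph2, which were called, and of Ryr1, the partner channel that was not, are shown to set the called genes beside an uncalled one. They lie at chr1:136052561-136052860 on the plus strand (Cacna1s), chr2:163397944-163398243 on the minus strand (Jph2, the first of a pair of overlapping windows) and chr7:29125102-29125401 on the minus strand (Ryr1). Capitals mark the E-box CAGCTG, the form of the muscle E-box searched for.
Cacna1s: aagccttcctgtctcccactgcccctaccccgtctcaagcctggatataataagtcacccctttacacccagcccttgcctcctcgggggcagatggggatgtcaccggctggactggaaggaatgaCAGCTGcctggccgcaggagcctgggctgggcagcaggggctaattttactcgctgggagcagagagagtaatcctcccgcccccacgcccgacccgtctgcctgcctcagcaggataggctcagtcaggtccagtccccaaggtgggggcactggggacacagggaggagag
Jph2: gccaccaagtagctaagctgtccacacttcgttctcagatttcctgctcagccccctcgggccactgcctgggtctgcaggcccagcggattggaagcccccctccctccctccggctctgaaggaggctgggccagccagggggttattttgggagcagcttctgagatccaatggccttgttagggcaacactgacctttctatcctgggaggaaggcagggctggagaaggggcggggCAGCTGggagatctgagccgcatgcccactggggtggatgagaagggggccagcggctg
Ryr1: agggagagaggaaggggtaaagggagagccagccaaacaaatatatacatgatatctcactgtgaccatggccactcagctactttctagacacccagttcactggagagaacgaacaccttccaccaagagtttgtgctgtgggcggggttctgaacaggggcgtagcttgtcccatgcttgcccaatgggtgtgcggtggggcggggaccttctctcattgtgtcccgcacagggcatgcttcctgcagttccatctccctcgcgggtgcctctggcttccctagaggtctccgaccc
The E-box begins at position -123 in Cacna1s and -9 in this window of Jph2, where -1 is the last base before the start. It is not in the window of Ryr1 or in either window of Cacnb1, which was not called. Of 32851 promoter windows of the same length, 16.3% hold it. None of the 6 windows holds the TATA box TATAAA (13.6% of all windows), the MEF2 core, CTA and TAG with any 4 bases between them (3.69%), or a CArG box (1.63%); both strands were searched and no matches overlapped. A match or its absence describes only these letters in this window.

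The same 10 genes were then compared in the cerebellum. None differed between KI and WT cerebellum past the threshold, where 0.205% of 13641 genes were called (0.147% higher and 0.0586% lower in KI). Of the 10, only Cacnb1 had an unadjusted p under 0.05 in limma, against 5.33% of all genes. Cacnb1 was at 6.72 and 6.66 in KI cerebellum, against 6.42 and 6.35 in WT cerebellum, a log2 difference of 0.30 ± 0.11 (SE; adjusted p = 0.818). Its KI arrays were the higher pair, the opposite order from muscle. Jph2 was at 5.67 and 5.90 in KI cerebellum, against 5.60 in both WT arrays, with a difference of 0.18 ± 0.11 that did not pass (SE; adjusted p = 0.998). These were the 2 triad genes without overlap in the cerebellum, where 35.3% of all genes had none (KI above WT in 15.3% and below in 20%). The 95% interval of the cerebellar difference was -0.35 to 0.14 for Cacna1s and -0.29 to 0.20 for Jph1. The median over the 10 genes was 0.02, against -0.01 over all genes tested.

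**Figure D3:**
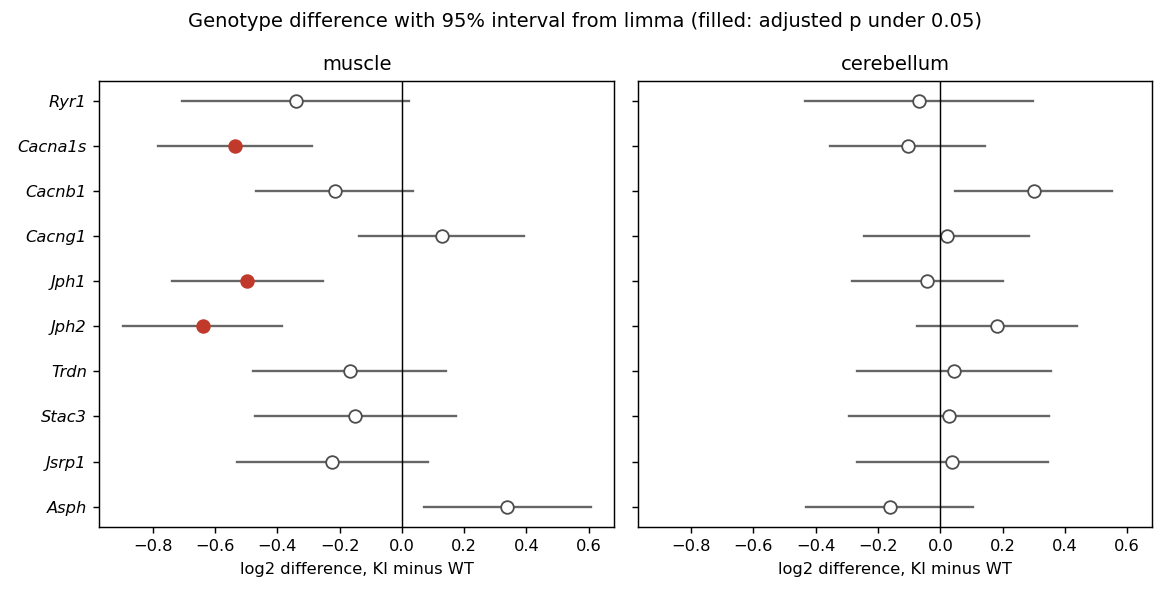
Log2 difference of KI minus WT for the 10 triad genes in muscle (left) and cerebellum (right), as points with the 95% interval from the limma fit; filled red points have an adjusted p under 0.05. Cacna1s, Jph1 and Jph2 are filled in muscle, and none in the cerebellum.

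Whether the effect of the genotype differed between the tissues was tested directly, as the muscle difference minus the cerebellum difference. None of the 10 genes passed, where 0.143% of 14708 genes did (0.102% with a positive and 0.0408% with a negative difference); 5 had an unadjusted p under 0.05, against 13.8% of all genes. Jph2 came nearest, at -0.82 ± 0.16 (SE; adjusted p = 0.0979). Cacnb1 was at -0.52 ± 0.16 (adjusted p = 0.227), Asph at 0.50 ± 0.17 (0.263), Jph1 at -0.45 ± 0.15 (0.262) and Cacna1s at -0.43 ± 0.16 (0.289). The muscle calls of Cacna1s, Jph1 and Jph2 are therefore not shown to be confined to muscle.

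Muscle and cerebellum themselves differed widely in these genes. Of the 10, 8 were higher in muscle past an adjusted p of 0.05 and a 2-fold change and 0 were lower. Of all genes 11% were higher and 15% lower by this rule, 26% in all. Trdn was 31.5-fold higher (log2 difference of muscle minus cerebellum 4.98 ± 0.10), Cacna1s 30.3-fold (4.92 ± 0.08), Ryr1 23.0-fold (4.53 ± 0.11), Cacng1 16.0-fold (with an SE of 0.08) and Stac3 13.8-fold (3.79 ± 0.10; all SE). Differences were smaller for Jph1 (7.93-fold), Cacnb1 (4.84-fold) and Jph2 (3.80-fold). In the fit of all probe sets, the other probe set of Jph1 gave 5.80-fold and that of Jph2 gave 6.23-fold. This probe set of Jph2 was at 4.82 to 5.08 in the cerebellum, near the 40th percentile. Adjusted p for the 8 ran from 6.01e-11 for Cacna1s to 1.82e-08 for Jph2. The cerebellar levels of Cacna1s (4.99 to 5.20), Stac3 (5.10 to 5.45) and Cacng1 (5.33 to 5.51) lay close to the 40th percentile of the arrays, which was 4.97 to 5.05 there, so array background bears on how large these 3 folds are.

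Jsrp1 and Asph did not follow the other 8. Jsrp1 was at 6.98 and 7.02 in KI muscle and 7.32 and 7.13 in WT muscle, against 6.31 and 6.02 in KI cerebellum and 6.02 and 6.24 in WT cerebellum. It was 1.95-fold higher in muscle (0.97 ± 0.10, SE; adjusted p = 1.02e-05), just under the 2-fold limit. Asph was lower in muscle, at 8.59 and 8.47 in KI and 8.21 and 8.18 in WT, against 8.82 and 9.05 in KI cerebellum and 9.16 and 9.03 in WT cerebellum. The tissue difference was 1.57-fold (-0.65 ± 0.08, SE; adjusted p = 6.85e-05). In 9 genes all muscle arrays lay above all cerebellum arrays, and in Asph the order was turned round. Of all genes, 64.9% had no overlap between the tissues, with muscle above in 31.6% and below in 33.2%. Of the 19 Trdn probe sets, 14 were below the 40th percentile on every cerebellum array, so the size of their difference is not given. The other 5 were called higher in muscle, by 4.89 to 6.53 log2 units.

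**Figure D4:**
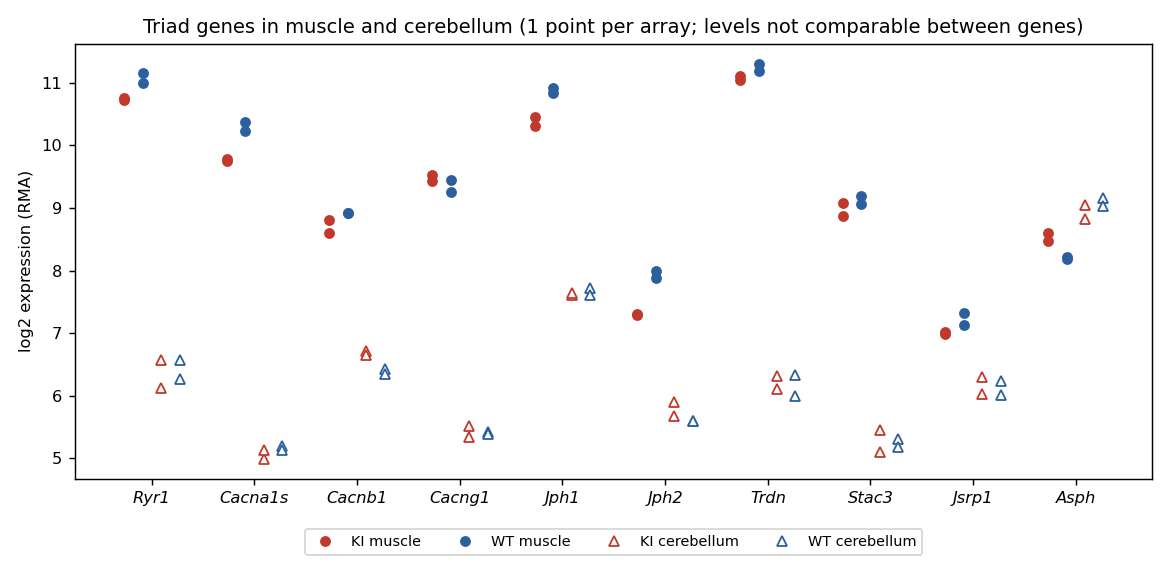
Log2 expression (RMA) of the 10 triad genes with 1 point per array: KI muscle and WT muscle as filled circles, KI cerebellum and WT cerebellum as open triangles, KI in red and WT in blue. The muscle arrays lie above the cerebellum arrays for 9 genes and below them for Asph; heights are not comparable between genes.

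Other genes of calcium handling were taken from 6 lists of pathway genes. These lists too were chosen with earlier results of these data known, so their shares are not an independent test. Of 57 genes listed, 47 had a probe set and 43 were tested in muscle. Sln reached the filter level in KI muscle alone and is left out of the counts. Of the other 42, 2 rose and 3 fell, 11.9% of them, against 3.37% of the 13708 genes that reached that level in both genotypes; their median log2 difference was 0.00603. In the list of proteins that store calcium at the release channel or modulate it, 1 rose and 2 fell of 11 tested (median -0.08). Casq2, the calsequestrin of slow and cardiac muscle, was at 9.12 and 9.42 in KI muscle, against 7.57 in both WT arrays, a 3.25-fold rise (adjusted p = 0.00158). Casq1, the calsequestrin of fast fibres, was at 11.14 and 11.17 in KI muscle, against 11.79 and 11.89 in WT muscle (1.60-fold lower, adjusted p = 0.0199). The calsequestrins thus moved in opposite directions, each without overlap. Homer1, a scaffold that binds ryanodine receptors, was at 8.32 and 8.09 in KI muscle, against 8.82 and 8.84 in WT muscle (1.54-fold lower, adjusted p = 0.0218). Sypl2, or mitsugumin 29, a membrane protein of the triad, was at -0.33 ± 0.14 and Hrc, a calcium-binding protein of the reticulum, at -0.47 ± 0.26 (SE; adjusted p = 0.223 and 0.350); neither passed, nor did the calcium sensor S100a1 (0.34 ± 0.19, adjusted p = 0.367).

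In the list of calcium uptake and buffering, 1 of the 7 genes that reached the filter level in both genotypes fell. Sln, sarcolipin, which inhibits the calcium pump, was at 5.35 and 5.87 in KI muscle, against 4.85 and 4.55 in WT muscle. The groups did not overlap, but both WT values were under the 40th percentile of the array and the gene was tested only because of its KI values, so no fold is given. Pvalb, the calcium buffer parvalbumin of fast fibres, was at 11.61 and 11.69 in KI muscle, against 12.15 and 12.32 in WT muscle (1.50-fold lower, adjusted p = 0.0439). In the cerebellum Pvalb differed by nearly as much, -0.57 ± 0.13, also without overlap but uncalled (SE; adjusted p = 0.310). Its muscle difference minus its cerebellum difference was -0.01 ± 0.19 (SE; adjusted p = 0.979). In muscle, Atp2a1, the fast calcium pump, was at -0.27 ± 0.16 (SE; adjusted p = 0.373). Mrln, the pump's micropeptide inhibitor myoregulin, was at -0.25 ± 0.22 (0.580) and Orai1, the store-operated channel, at -0.13 ± 0.13 (0.615). Among 9 genes of the tubule and its anchoring 1 rose: Popdc2, a Popeye domain protein of the muscle membrane, was at 8.79 and 8.87 in KI muscle, against 8.33 and 8.38 in WT muscle (1.40-fold higher, adjusted p = 0.048). Dysf, the membrane repair protein dysferlin, was just short of the threshold (0.57 ± 0.13, SE; adjusted p = 0.0527), and Dnm2 (0.23 ± 0.10, 0.243) and Speg (-0.26 ± 0.13, 0.296) did not pass. Of these 5 called genes, Casq2 kept its call without any 1 muscle array and with the muscle arrays alone; Casq1, Pvalb and Popdc2 lost theirs without any 1 muscle array (adjusted p from 0.0815 to 0.198), and Homer1 without each but KI replicate 94 (up to 0.115).

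**Figure D5:**
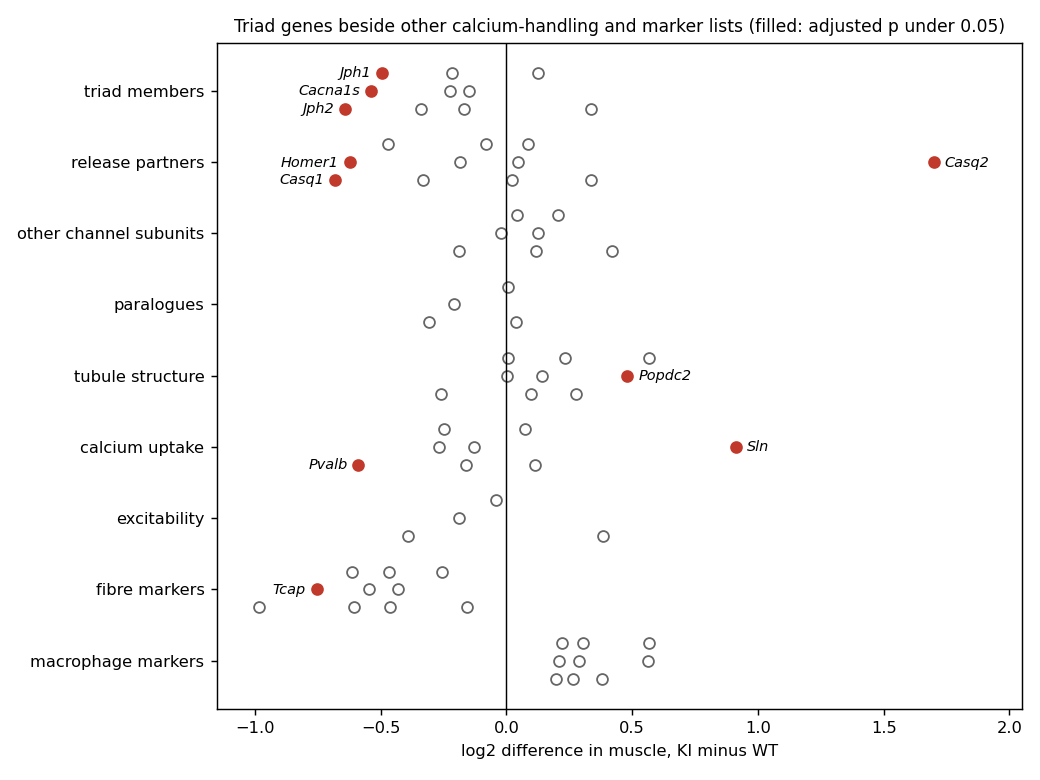
Log2 difference of KI minus WT in muscle for each tested gene of the triad, of the 6 other pathway lists and of the fibre and macrophage marker lists; filled red points, with names, have an adjusted p under 0.05 (Sln was tested only through its KI values), and vertical position within a list carries no meaning. The 3 called triad genes lie left of 0, while Casq2, Sln and Popdc2 lie right of it.

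None of 7 tested genes for other channel subunits, 4 paralogues of triad genes or 4 genes of excitability was called in muscle. Of all genes tested in muscle, 3.55% were called. Cacna2d1, the remaining subunit of the voltage sensor, was at 10.70 and 10.60 in KI muscle, against 10.37 and 10.70 in WT muscle, overlapping like Cacng1 and Stac3; it was named after its values were seen. Of the channel paralogues, Cacng7 was at 0.42 ± 0.18 (SE; adjusted p = 0.225), Cacna1c at 0.20 ± 0.17 (0.532) and Cacnb4 at 0.12 ± 0.12 (0.594). The brain junctophilins Jph4 (-0.31 ± 0.19, 0.396) and Jph3 (-0.21 ± 0.14, 0.431) and the adaptor Stac2 (0.04 ± 0.12, 0.901) did not pass, nor did the potassium channel genes Kcnn3 (0.38 ± 0.13, 0.145) and Kcnj2 (-0.19 ± 0.16, 0.542) or the sodium pump subunit Atp1b1 (-0.39 ± 0.14, 0.168). Between the tissues, all 4 paralogues of triad genes that reached the filter level in both were lower in muscle past the threshold. Of all 13398 genes that reached that level in both tissues, 1804 were lower in muscle by the same rule.

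The marker lists were also chosen with earlier results of these data known. Over all genes tested in muscle, 19.9% had KI below WT without overlap and 0.89% were called lower. Markers of muscle fibres were lower on both KI arrays than on both WT arrays in 10 of 10 cases, with a median log2 difference of -0.51, and 1 was called. This was Tcap, the titin cap, 1.69-fold lower (adjusted p = 0.021); its call was lost with the muscle arrays alone (0.0735) and without each muscle array but KI replicate 97 (0.0710 to 0.116). Their summed level on the linear scale was 23559 and 26238 in KI muscle, against 33066 and 35194 in WT muscle. The median difference of the triad genes, -0.22, lay between the -0.51 of the fibre markers and the 0.03 of all genes. The called Cacna1s, Jph1 and Jph2 lay at -0.54, -0.50 and -0.64, within the fibre markers' range of -0.98 to -0.16. The other 7 triad genes ran from -0.34 to 0.34. None of the macrophage markers was called in limma. Of 9, 8 reached the filter level in both genotypes. All 8 had positive differences (median 0.30) and 5 of them had no overlap. Of the 13708 genes that reached that level in both genotypes, 7554 had positive differences and 6779 had no overlap. The summed level of the 9 was 802 and 917 in KI muscle, against 656 and 697 in WT muscle. No marker of either list was listed at 0. The part of either in the triad genes' differences was not tested. None of the tested markers of slow and type 2A fibres (6), endothelium (5), fibroblasts (6), adipocytes (4), satellite cells (5), Schwann cells (3) or red blood cells (2) was called. All 6 markers of slow and type 2A fibres had negative differences (median -0.27), 1 of them without overlap. Of all genes tested in muscle, 45.0% had negative differences.

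The genes whose values over all 8 arrays ran closest to the mean of the 10 triad genes were Rtn2, Tpm2, Fabp4, Cmya5 and Casq1, with Pearson's r from 0.9994 to 0.9998. These 8 points share the large gap between the tissues. Over the 4 muscle arrays alone, measured from the WT mean, the nearest genes were Mamdc4, Gpatch4, Kcnk16, Klhdc3 and Ciao3, within a root mean square distance of 0.00592 to 0.0141 log2 units. Mamdc4, Gpatch4 and Kcnk16, were at 5.23 to 5.64 on every muscle array, near the 40th percentile of 4.96 to 5.05. Both measures are descriptions over 8 and 4 arrays.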

How the data were processed

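Biotin-labelled total RNA was measured on Affymetrix Mouse Gene 1.0 ST arrays. The authors deposited log2 values for each probe set; the submitters' processing notes name GCOS and RMA. RMA corrects background, brings arrays to a common distribution and summarises probes by median polish, which narrows differences between arrays; software versions, any filter, the build and the set of arrays normalised jointly are not given here. The table holds 35556 probe sets on 8 arrays, with 2 arrays per group. The platform annotation gave 21789 probe sets 1 symbol and 1621 several, and 12146 carried none here. Genes with several probe sets were read from the brightest by mean over the 8 arrays. Chromosome names come from RefSeq (GRCm38.p6).

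Testing in a tissue required 2 or more of the 4 arrays there to reach the 40th percentile of the array's probe sets. A model with 4 group means was fitted with limma 3.58.1 in R 4.3.3 (lmFit, eBayes; 4 residual and 5.30 prior degrees of freedom), and p-values were adjusted by Benjamini-Hochberg over all genes tested. All adjusted p values come from this fit unless another is named, and intervals are at 95%. The number of arrays limits the precision. The code was tested on simulated data. The 10 members and all lists were chosen with earlier results of these data known. Named were the members, the called genes and up to 3 more with the smallest p per pathway list, called markers, and the 5 genes most alike by each of 2 measures. Alternatives covered the filter, the probe sets per gene, scaling, variance moderation, array weights, each array left out, 1 tissue alone, the threshold and the replicate number as a block. The same replicate numbers appear in both tissues, and the labels do not call them animals. Arrays of the same number did not deviate together from their group means (r = 0.0566 for KI and -0.0965 for WT over 14708 genes). With 2 arrays per group the deviations mirror each other, so this cannot tell whether equal numbers mean the same animal. Arrays were not paired in the main fit, and the number served as a block only among the alternatives.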

Additional observations from a re-analysis of the deposited data

How the results depend on the processing

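The 10 triad genes kept the sign of their KI minus WT difference in muscle and of their muscle minus cerebellum difference under every alternative run. Many alternatives cannot change the muscle difference itself, and leaving out 1 array cannot turn a sign where the groups do not overlap. The kept signs are thus a weak check. The count of triad genes called in muscle was 3 in the main setting, 1 with no filter (more genes tested), 0 with the muscle arrays alone (fewer arrays) and 0 to 2 with 1 array left out: 0 without any 1 muscle array, and 1 without WT cerebellum replicate 95 or 96. The median difference was -0.28 after another quantile normalisation, -0.18 with arrays centred on their medians and -0.26 to -0.22 with 1 array left out. The counts of other pathway genes that follow include Sln, which was tested only through its KI values. Without Sln, 5 of these genes were called in the main setting. The 6 calls among other pathway genes, Sln included, became 3 with no filter, 1 with the muscle arrays alone and 1 to 5 with 1 array left out: 2 without KI muscle replicate 94 or WT muscle replicate 95, 1 without KI muscle replicate 97 or WT muscle replicate 96, and 3 without WT cerebellum replicate 95 or 96. Over all genes the 495 calls in muscle became 246 with no filter, 155 with the muscle arrays alone, 995 at an adjusted p of 0.1 and 108 to 393 with 1 array left out. For the difference between the tissues, 1 triad gene passed at 0.1, and 0 with the replicate block as a fixed term or at random (consensus correlation -0.0733); with either block 8 were called between the tissues, and with the random block 3 were called in muscle and 0 in the cerebellum.

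Values that changed sign were all uncalled, and the cause was not tested. With 1 array left out, the cerebellar difference ran from -0.29 (KI replicate 97) to 0.15 (KI 94) for Ryr1, which was at 0.082 without WT 96. It ran from -0.071 (KI 94) to 0.11 (KI 97) for Cacng1, which was at -0.00167 after another quantile normalisation. Ranges were -0.10 (WT 96) to 0.012 (WT 95) for Jph1, -0.13 (WT 95) to 0.22 (WT 96) for Trdn, with -0.06 without KI 94, -0.15 (KI 97) to 0.21 (KI 94) for Stac3, with -0.03 without WT 96, and -0.10 (KI 94) to 0.18 (KI 97) for Jsrp1, with -0.07 without WT 95. The difference between tissues ran from -0.35 (KI cerebellum 94) to 0.000635 (KI cerebellum 97) for Stac3. In muscle the ranges were -0.015 (WT 95) to 0.090 (WT 96) for Stac2, -0.52 (KI 97) to 0.022 (KI 94) for Mrln, -0.30 (WT 96) to 0.036 (WT 95) for Orai1 and -0.43 (KI 97) to 0.054 (KI 94) for Kcnj2.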
